A study of Mus musculus with 12 samples.

Results

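Livers of mice given triptolide together with crocin (MTP+CR, 4 livers) were compared with livers of mice given normal saline (NC, 4 livers). The question was which genes stood at another level than in saline livers when crocin was given alongside triptolide. These 8 livers are part of 12 in the series, and the other 4 came from mice given triptolide alone (MTP). All mice were healthy male Kunming mice, an outbred stock, obtained at 7 to 8 weeks of age and dosed by oral gavage for 7 days, with triptolide at 300 μg/kg in the MTP+CR and MTP groups and crocin at 100 mg/kg in the MTP+CR group. The RNA-seq table holds 1 library per liver. No group received crocin alone, so an effect of crocin by itself and an effect of the combination cannot be told apart. The stock of triptolide is described as made in DMSO and diluted in saline, whereas the NC mice are described as given normal saline.

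Triptolide is a diterpenoid from the thunder god vine that blocks transcription by binding the XPB subunit of TFIIH, encoded by Ercc3, and the liver is among the organs it injures. Crocin is a water-soluble carotenoid of saffron, often studied as an antioxidant. Hepatocytes make up most of the liver mass and carry out lipid, drug and protein metabolism, while fenestrated endothelial cells line the sinusoids and clear macromolecules from the blood.

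The libraries held 15509226 to 17915632 counts in MTP+CR livers and 15623775 to 18430566 in NC livers, and levels are given as CPM, the counts scaled to library size with TMM factors. Those factors were 0.823 to 0.989 in MTP+CR, 1.07 to 1.52 in MTP and 0.836 to 0.952 in NC livers. Albumin, the marker that defines hepatocytes, took 3.80% to 5.59% of the counts in MTP+CR livers and 4.35% to 10.5% in NC livers. The 4 MTP+CR libraries held fewer counts on long genes than the NC libraries. Gene length is the one implied by the deposited counts and FPKM values (counts scaled by length and library total), not the chromosomal span. The median log2 difference from the NC mean, in the longest quintile of genes minus the shortest quintile, was −0.66, −0.22, −0.25 and −1.21 in MTP+CR 1 to 4, 0.18, 0.11, 0.19 and −0.36 in MTP 1 to 4, and −0.14 to 0.11 in NC livers. MTP+CR 1 and 4 stood apart, while MTP 4 had a steeper slope than MTP+CR 2 and 3. Totals and list counts without MTP+CR 1 and 4 are given in the next paragraph.

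Of 15197 genes tested, 202 (1.33%) passed edgeR's quasi-likelihood test (adjusted p below 0.05, change of more than 1.5-fold), here termed called, 50 of them higher (0.329%) and 152 lower (1.00%) in MTP+CR livers. The median log2 fold change over all genes was −0.02. At an unadjusted p under 0.05, 11.1% of all genes tested were higher and 10.8% lower. The 4 MTP+CR livers and the 4 NC livers did not overlap for 200 of the 202, a count that the test itself largely fixes, and for 15.5% of all 15197 genes. DESeq2 called 563 genes higher (3.70%) and 595 lower (3.92%). Limma-voom with quality weights per library, here termed limma-voom, called 236 higher (1.55%) and 389 lower (2.56%). In MTP livers against NC livers, 2.61% of the genes were called higher and 2.78% lower. Of the 50 higher calls in MTP+CR livers, 24 were also higher calls in MTP livers. Of the 152 lower calls, 17 were lower calls there too, with the NC livers shared by both comparisons. Leaving out 1 NC liver gave a total of 63 (NC 1), 106 (NC 2), 81 (NC 3) or 64 (NC 4). Leaving out 1 MTP+CR liver gave 98 (MTP+CR 1), 370 (MTP+CR 2), 83 (MTP+CR 3) or 84 (MTP+CR 4), and the total was 133 after removal of MTP 2 and 328 after removal of MTP 4. Without MTP+CR 1 and 4 together, 55 genes were called, of which 3 were higher and 52 lower. In that fit, which has 2 MTP+CR livers, 11 endothelial markers and 1 stellate and fibroblast marker were called lower and 1 fatty acid oxidation gene higher. The 1 coagulation gene called lower there was F8 (coagulation factor VIII), which is among those 11 endothelial markers. Every other gene list described below had 0 calls by edgeR's quasi-likelihood test.

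The groups of genes that moved furthest from saline levels were markers of the liver endothelium, which were lower in MTP+CR livers, and genes of fatty acid oxidation, which were higher. Nuclear genes of oxidative phosphorylation also had a high median, but few passed the test gene by gene. Apart from fatty acid oxidation, lists of hepatocyte functions had medians from −0.48 for acute phase proteins to 0.52 for apolipoproteins against NC. The medians are given beside those of MTP livers against the same NC livers, which both comparisons share.

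**Figure D1:**
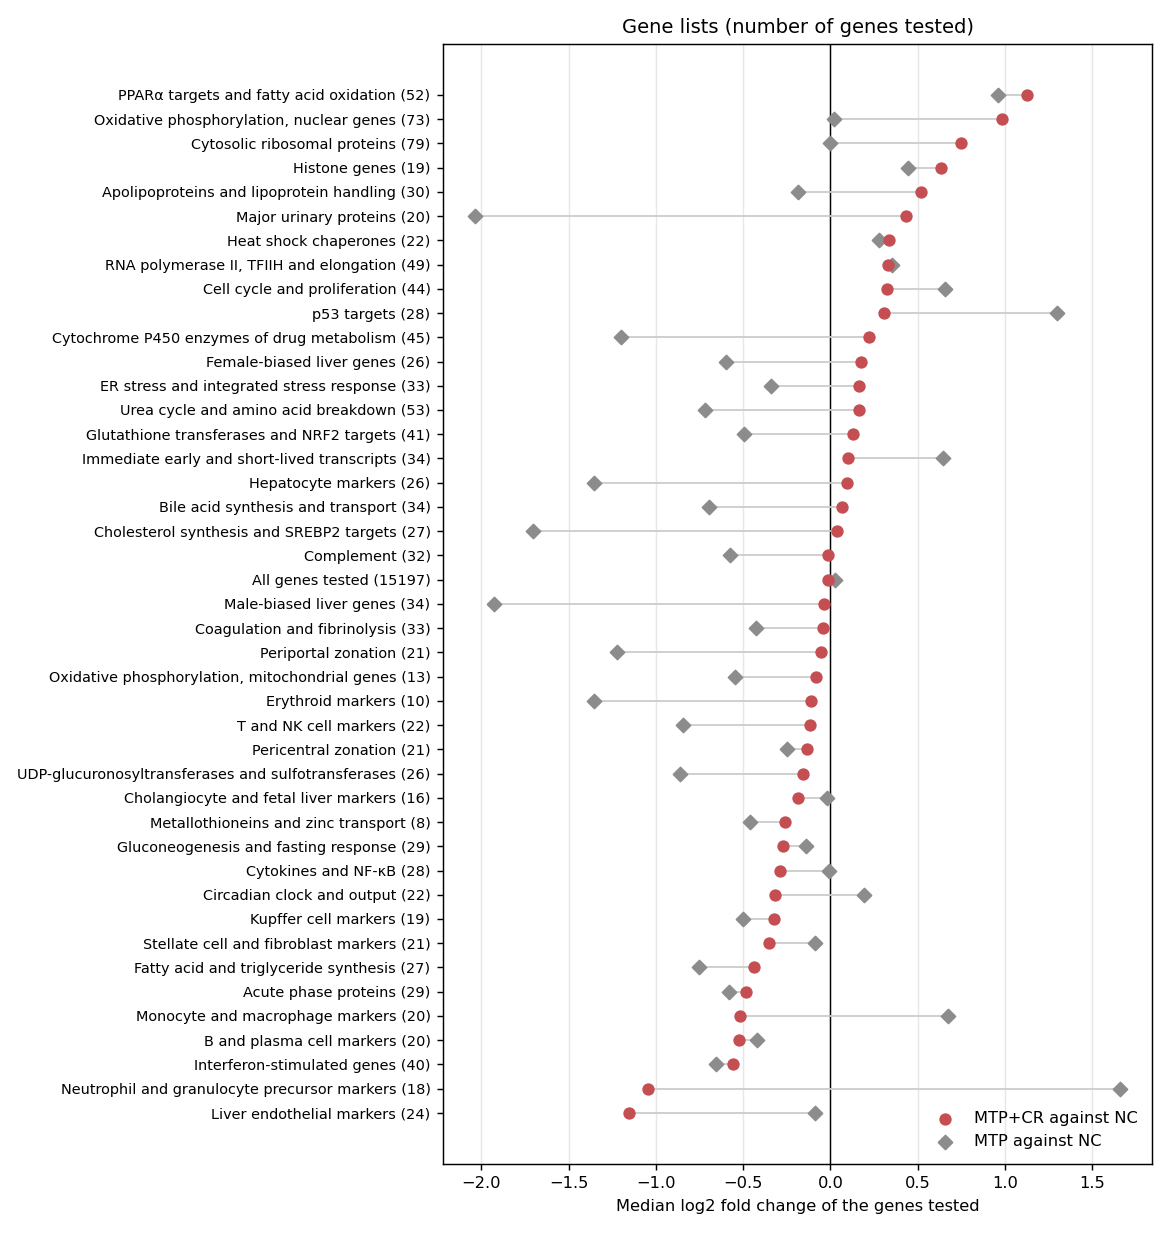
Median log2 fold change of each gene list in MTP+CR livers against NC livers (circles) and in MTP livers against NC livers (diamonds), with the number of genes tested in brackets and lists ordered by the first value. The endothelial list lies lowest among the circles at −1.15 and the PPARα and fatty acid oxidation list highest at 1.13.

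Of 24 endothelial markers tested, 12 were lower and 0 were higher in MTP+CR livers, and 23 had a negative log2 fold change (median −1.15). In MTP livers against NC livers the same list had a median of −0.09 and 0 calls by edgeR's quasi-likelihood test. The summed level of the list ranged from 322 to 492 CPM in MTP+CR, 864 to 1056 CPM in MTP and 1012 to 1125 CPM in NC livers. In whole liver RNA, fewer endothelial cells and less RNA per cell cannot be told apart. DESeq2 and limma-voom each called 17 of the 24 lower, and at an unadjusted p under 0.05 18 were lower. Over all genes tested, the shares lower were 1.00% by edgeR, 3.92% by DESeq2, 2.56% by limma-voom and 10.8% at that unadjusted p.

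F8 encodes coagulation factor VIII, which in the liver is made by sinusoidal endothelial cells, and lies at chrX:75172715-75382615 (mm10, minus strand). It measured 6.82, 9.40, 6.01 and 5.68 CPM in MTP+CR livers, against 40.7, 37.3, 43.2 and 59.2 CPM in NC livers. Every MTP+CR liver was far below every NC liver, and the log2 fold change was −2.69 ± 0.26 (SE, n = 4 each; adjusted p = 0.00113, edgeR's quasi-likelihood test). In MTP livers F8 ranged from 25.4 to 46.4 CPM, which overlapped the NC range.

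The receptors for vascular endothelial growth factors were low in all 4 MTP+CR livers. Kdr (VEGFR2, chr5:75932827-75978458) measured 23.6, 23.9, 18 and 25.9 CPM in MTP+CR livers, against 85.7, 84.1, 85.5 and 96.9 CPM in NC livers (log2 fold change −1.95 ± 0.21, SE; adjusted p = 0.0021 by edgeR's quasi-likelihood test). Flt1 (VEGFR1, chr5:147561604-147726011) measured 5.33, 4.57, 3.23 and 5.39 CPM in MTP+CR livers, against 19.2, 21.1, 24.6 and 16.9 CPM in NC livers, a log2 fold change of −2.14 ± 0.25. The groups did not overlap for either gene, and both stayed within 1 SE of 0 in MTP livers against NC livers, at 0.00 for Kdr and −0.09 for Flt1. Flt4 (VEGFR3), which was not on the list and was chosen after its values were seen, was likewise lower, with 10.6 to 17.8 CPM in MTP+CR livers against 40.0 to 50.2 CPM in NC livers.

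Tek, the angiopoietin receptor TIE2, measured 8.17, 7.24, 5.56 and 11.7 CPM in MTP+CR livers, against 21.1, 26.0, 24.5 and 30.7 CPM in NC livers (log2 fold change −1.64 ± 0.24, SE; adjusted p = 0.0063, edgeR's quasi-likelihood test). Ptprb, the endothelial phosphatase VE-PTP that acts on TIE2, measured 9.24, 32.4, 19.6 and 4.67 CPM in MTP+CR livers, against 117, 109, 116 and 145 CPM in NC livers, and its log2 fold change was −2.89 ± 0.47. Both genes were separated between the groups without overlap. Ptprb was the more variable of the pair in MTP+CR livers, and its lowest values were in MTP+CR 4 and MTP+CR 1, the libraries with the steepest trend over gene length.

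Of the other called members, which lie outside the naming rule and were chosen after their values were seen, the scavenging functions of the sinusoid were represented by Fcgr2b, an inhibitory Fc receptor, and by Dnase1l3, a secreted nuclease. Fcgr2b ranged from 16.3 to 33.8 CPM in MTP+CR livers against 60.8 to 104 CPM in NC livers, and Dnase1l3 from 32.9 to 58.6 CPM in MTP+CR livers, 102 to 128 CPM in NC livers. The remaining calls were Cdh5 (VE-cadherin of endothelial junctions), Pecam1 (CD31), Clec4g (a sinusoidal C-type lectin), Oit3 and Gpr182, with log2 fold changes from −1.41 for Oit3 to −1.05 for Pecam1. Members that did not pass included Stab2, the hyaluronan scavenger receptor, with 39.0 to 44.3 CPM in MTP+CR livers and 79.2 to 110 CPM in NC livers (log2 fold change −1.15 ± 0.28, SE; adjusted p = 0.0613 by edgeR's quasi-likelihood test). Lyve1, another hyaluronan receptor, overlapped between the groups, at 3.39 to 13.6 CPM in MTP+CR livers and 2.74 to 22.8 CPM in NC livers.

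**Figure D2:**
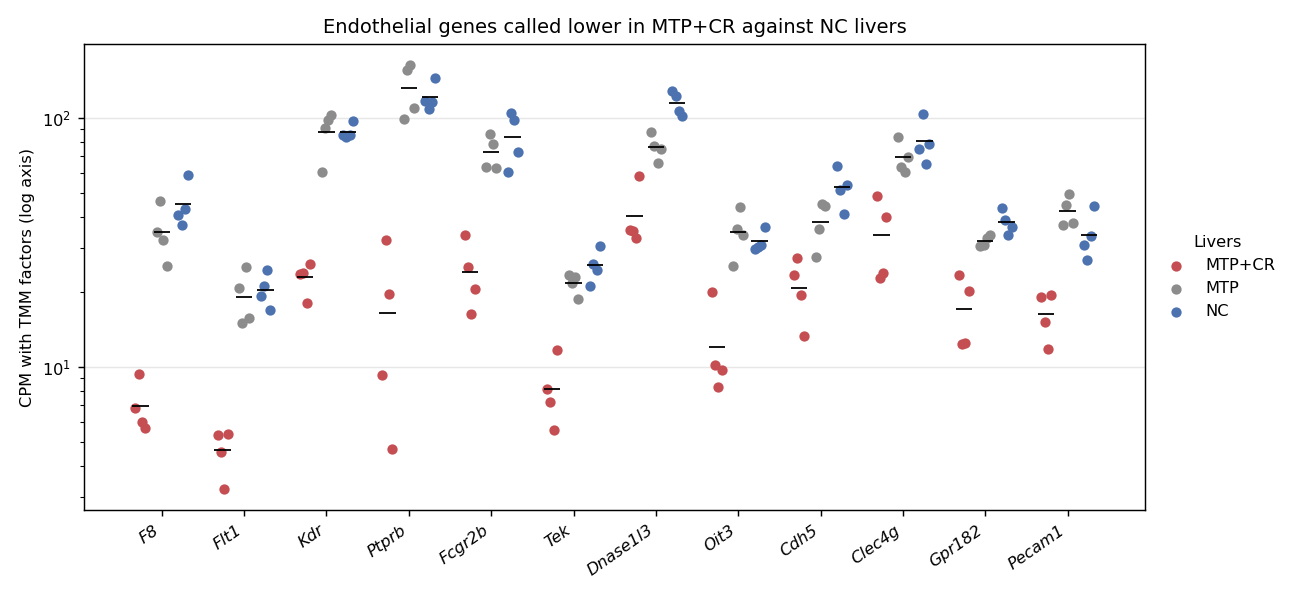
Level of the 12 endothelial genes called lower (CPM with TMM factors, log axis), with 1 point per liver and a line at the mean of each group of 4 livers. The MTP+CR points lie below all NC points for every gene shown, as for Kdr with at most 25.9 CPM in MTP+CR livers and at least 84.1 CPM in NC livers.

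F8, Flt1, Kdr, Ptprb, Tek, Fcgr2b and Dnase1l3 kept their calls in each of the 12 fits that left out 1 library. Cdh5, Clec4g, Gpr182, Oit3 and Pecam1 lost theirs in 5 to 9 of those fits, so that 7 members were called without NC 1, NC 2, NC 4 or MTP+CR 3. Without MTP+CR 1 and 4 together, 11 members were called lower and the median was −1.45. The 9 members shorter than the median tested gene had a median of −1.20 with 5 called lower, and the 15 longer ones a median of −1.14 with 7 called lower. With the trend over gene length removed from each library, the median of the list was −1.20.

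The start-site regions of 2 gene groups were read because their members moved together. Of the promoters read singly, those with a match are printed. Flt1 is an endothelial gene of large change with matches to the core letters bound by ETS factors, which act in endothelial cells. Its RefSeq promoter (GRCm38.p6, chr5:147725962-147726261, minus strand) runs from 250 bases before to 50 after the start, with AGGAAG in capitals.
Flt1: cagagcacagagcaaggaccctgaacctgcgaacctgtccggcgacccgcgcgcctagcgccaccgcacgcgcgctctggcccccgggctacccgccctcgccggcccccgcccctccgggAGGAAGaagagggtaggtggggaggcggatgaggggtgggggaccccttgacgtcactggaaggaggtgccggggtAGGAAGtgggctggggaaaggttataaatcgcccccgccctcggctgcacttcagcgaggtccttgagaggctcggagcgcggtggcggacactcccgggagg
The motif AGGAAG, searched on both strands, matched at −129 and −53 from the start of Flt1, and had 0 matches in the promoter of Kdr. It was present in 10 of the 15 endothelial markers with a promoter in the RefSeq table (66.7%), in 2 of the 6 that were called lower (33.3%) and in 37.8% of the promoters of all genes tested.

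Markers of other cells that line or lie along the sinusoids were less uniform. Of 19 Kupffer cell markers, 2 were lower and the median was −0.32, with 5 lower at an unadjusted p under 0.05 (10.8% of all genes tested) and 3 lower by DESeq2 and by limma-voom. Adgre1, the gene for F4/80, measured 14.9, 29.2, 12.6 and 13.9 CPM in MTP+CR livers, against 65.6, 45.1, 47.0 and 58.0 CPM in NC livers (log2 fold change −1.61 ± 0.27, SE; adjusted p = 0.0108 by edgeR's quasi-likelihood test). Mpeg1, which encodes perforin-2 of macrophages, ranged from 107 to 172 CPM in MTP+CR livers and from 199 to 444 CPM in NC livers, with no overlap. Clec4f, the lectin most particular to mouse Kupffer cells, was not called, and its range of 77.6 to 317 CPM in MTP+CR livers included that of 203 to 284 CPM in NC livers.

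Among monocyte and macrophage markers (median −0.52), 5 of 20 were lower at an unadjusted p under 0.05 (10.8% of all genes tested), 2 by DESeq2 and 1 by limma-voom. The 1 lower call by edgeR was Mrc1, the mannose receptor that sinusoidal endothelium also carries in mice. It measured 44.8, 34.6, 39.4 and 33.4 CPM in MTP+CR livers, against 82.2, 89.4, 110 and 128 CPM in NC livers, without overlap. The 21 stellate and fibroblast markers had a median of −0.35 in MTP+CR livers against NC livers and −0.09 in MTP livers against NC livers, and 8 were lower in MTP+CR livers at an unadjusted p under 0.05, 4 by DESeq2 and 4 by limma-voom. Colec10, a collectin expressed by stellate cells, was the single lower call among them by edgeR, with 11.9 to 29.7 CPM in MTP+CR livers and 62.4 to 91.0 CPM in NC livers. Tlr4, the lipopolysaccharide receptor, is on none of the lists of cell markers. It was lower as well, at 1.65 to 2.70 CPM in MTP+CR livers against 6.56 to 11.7 CPM in NC livers. The 28 genes of cytokines and NF-κB had a median of −0.29, and 1 was lower by edgeR. At an unadjusted p under 0.05, 5 of the 28 were lower (10.8% of all genes tested). DESeq2 called 5 of them lower and limma-voom 2. The calls of Adgre1, Mrc1, Colec10 and Tlr4 held with any 1 library left out, whereas that of Mpeg1 was lost without NC 1, 2 or 4, MTP 2 or MTP+CR 1, 2 or 4 (adjusted p up to 0.102 by edgeR's quasi-likelihood test).

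Neutrophil and granulocyte precursor markers had 0 calls among 18 by edgeR, DESeq2 and limma-voom, and 1 member lower at an unadjusted p under 0.05, against 10.8% of all genes tested. Their median was −1.04 in MTP+CR livers against NC livers and 1.66 in MTP livers against NC livers. The first of these medians rested on NC 2, without which it was 0.03, and the summed level of the list was 69.4 to 446 CPM in MTP+CR livers, against 2172 CPM in NC 2 and 80.6 to 336 CPM in the other NC livers. The T and NK cell list also had 0 calls of 22 in each of these tools and 0 members at an unadjusted p under 0.05, and its median of −0.12 was 0.16 without NC 4 and 0.15 with limma-voom. The B and plasma cell list had a median of −0.52, with 5 of 20 lower at an unadjusted p under 0.05, 4 by DESeq2 and 2 by limma-voom. The 1 lower call by edgeR was the immunoglobulin heavy chain gene Ighg2c, at 0.587 to 1.99 CPM in MTP+CR livers against 7.28 to 15.1 CPM in NC livers. That call was lost without any of the NC or MTP+CR livers, and without MTP 2 (adjusted p up to 0.0946 by edgeR's quasi-likelihood test).

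PPARα is the nuclear receptor that switches on fatty acid transport and oxidation in hepatocytes during fasting. Of 52 of its targets and fatty acid oxidation genes tested, 8 were higher and 0 were lower in MTP+CR livers, and 48 had a positive log2 fold change (median 1.13). At an unadjusted p under 0.05, 37 were higher, against 11.1% of all genes tested. In MTP livers against NC livers, 20 were called higher and the median was 0.96. The summed level of the list ranged from 18107 to 33966 CPM in MTP+CR livers and from 9679 to 16109 CPM in NC livers.

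Crat encodes carnitine acetyltransferase, which passes acetyl groups between CoA and carnitine (chr2:30400471-30415813). It measured 87.8, 85.2, 67.4 and 120 CPM in MTP+CR livers, against 27.4, 27.0, 27.3 and 28.4 CPM in NC livers. The NC livers were close to one another and every MTP+CR liver lay above them, with a log2 fold change of 1.71 ± 0.23 (SE, n = 4 each; adjusted p = 0.00442, edgeR's quasi-likelihood test). In MTP livers Crat ranged from 98.5 to 164 CPM, above all NC livers too.

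Acot8, a peroxisomal acyl-CoA thioesterase, measured 30.6, 21.9, 27.4 and 48.7 CPM in MTP+CR livers, against 13.5, 9.89, 10.5 and 10.9 CPM in NC livers (log2 fold change 1.52 ± 0.25, SE; adjusted p = 0.012 by edgeR's quasi-likelihood test). Decr2, the peroxisomal dienoyl-CoA reductase, measured 362, 282, 298 and 454 CPM in MTP+CR livers, against 95.4, 89.3, 69.6 and 125 CPM in NC livers, a log2 fold change of 1.88 ± 0.38. Slc25a20, the carnitine-acylcarnitine carrier of the inner mitochondrial membrane, measured 207, 124, 165 and 215 CPM in MTP+CR livers, against 63.1, 53.8, 72.3 and 94.8 CPM in NC livers. None of these genes overlapped between the groups, although MTP+CR 2 was the lowest MTP+CR liver for each.

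The dehydrogenases that start β-oxidation were among the higher calls with the most counts. Acadm, for medium chains, measured 643, 441, 470 and 881 CPM in MTP+CR livers, against 250, 222, 226 and 328 CPM in NC livers (log2 fold change 1.25 ± 0.28, SE). Acadvl, for very long chains, measured 576, 494, 572 and 738 CPM in MTP+CR livers, against 165, 291, 282 and 302 CPM in NC livers (1.20 ± 0.25). Both sets were separated without overlap, with adjusted p-values of 0.0495 for Acadm and 0.0346 for Acadvl by edgeR's quasi-likelihood test. Eci1, an enoyl-CoA isomerase chosen after its values were seen, was the last of the 8 calls, at 112 to 268 CPM in MTP+CR livers and 57.3 to 90.9 CPM in NC livers.

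Fgf21 encodes a liver hormone induced by PPARα in fasting. It measured 17.6, 6.72, 7.24 and 33.1 CPM in MTP+CR livers, against 1.60, 1.40, 0.426 and 4.58 CPM in NC livers. The groups did not overlap, MTP+CR 1 and 4 were highest, and the log2 fold change was 3.01 ± 0.67 (SE; adjusted p = 0.0468, edgeR's quasi-likelihood test). In MTP livers Fgf21 ranged from 5.18 to 14.3 CPM.

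**Figure D3:**
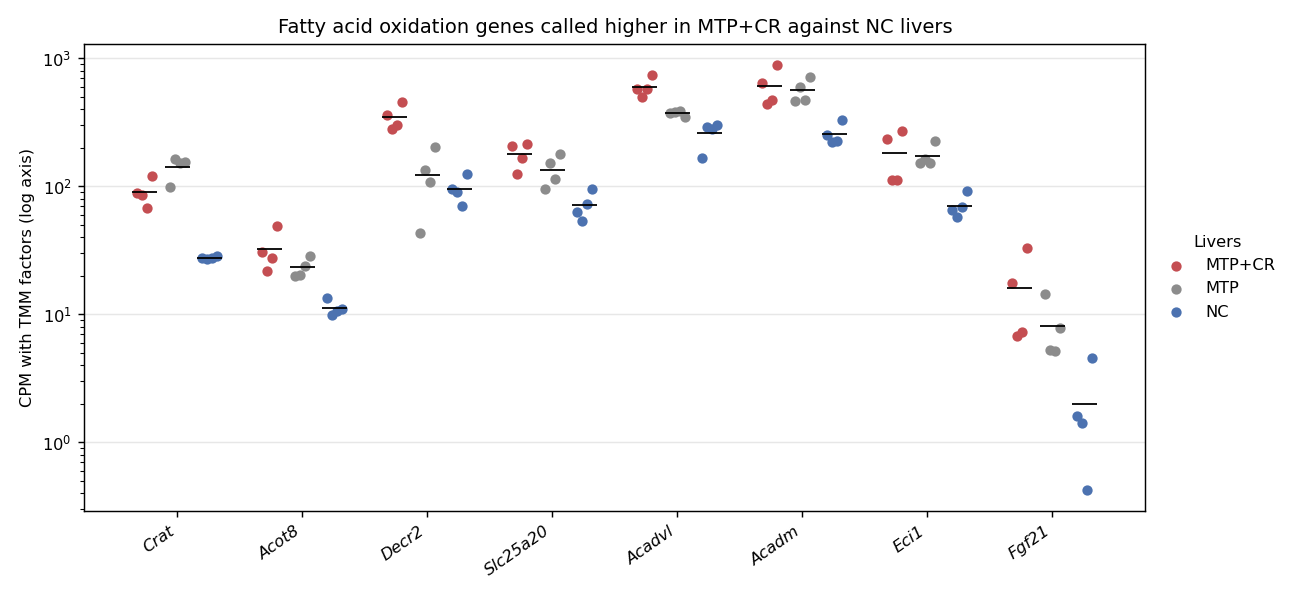
Level of the 8 fatty acid oxidation genes called higher (CPM with TMM factors, log axis), with 1 point per liver and a line at the group mean. The MTP+CR points lie above all NC points for each gene, as for Crat with at least 67.4 CPM in MTP+CR livers and at most 28.4 CPM in NC livers.

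DESeq2 called 27 of the 52 members higher and limma-voom 17. Crat and Acot8 kept their calls with any 1 library left out. The other 6 lost theirs in 8 to 10 of the 12 such fits, which included those without NC 1, 2 or 3, MTP 2 or MTP+CR 1, 3 or 4, and 2 members were called in each of these. Without MTP 3, 4 members were called. Without MTP+CR 1 and 4 together, 1 member was called and the median was 0.79. With the length trend removed the median was 1.12.

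Acadm and Acadvl are shown for the letters AGGTCA, which make up each arm of the direct repeat bound by PPARα with its RXR partner. The RefSeq promoters (GRCm38.p6, Acadm at chr3:153944594-153944893 and Acadvl at chr11:70015379-70015678, both on the minus strand) carry the motif or its reverse complement in capitals.
Acadm: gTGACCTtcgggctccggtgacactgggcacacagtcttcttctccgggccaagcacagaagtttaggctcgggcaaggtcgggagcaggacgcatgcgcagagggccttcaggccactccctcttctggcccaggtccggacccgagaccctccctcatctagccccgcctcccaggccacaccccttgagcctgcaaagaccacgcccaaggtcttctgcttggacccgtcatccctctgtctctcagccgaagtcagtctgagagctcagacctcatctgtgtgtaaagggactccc
Acadvl: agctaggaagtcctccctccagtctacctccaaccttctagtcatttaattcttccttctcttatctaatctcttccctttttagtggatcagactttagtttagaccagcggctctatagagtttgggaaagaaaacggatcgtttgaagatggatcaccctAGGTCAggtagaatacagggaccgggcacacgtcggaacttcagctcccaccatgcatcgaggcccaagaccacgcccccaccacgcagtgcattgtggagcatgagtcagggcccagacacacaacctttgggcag
The match begins at −249 in Acadm, where it reads TGACCT, and at −87 in Acadvl, and the promoter of Fgf21 had 0 matches. On either strand AGGTCA was found in 8 of the 38 list members with a promoter in the table (21.1%), in 2 of the 7 that were called higher (28.6%) and in 15.5% of the promoters of all genes tested.

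The 73 nuclear genes of oxidative phosphorylation all had a positive log2 fold change in MTP+CR livers (median 0.98). At an unadjusted p under 0.05, 59 were higher, against 11.1% of all genes tested, but 1 passed the adjusted test. That gene was Ndufb6, a subunit of complex I, with 91.5, 52.9, 58.6 and 116 CPM in MTP+CR livers, against 38.5, 35.9, 33.9 and 30.8 CPM in NC livers. The groups did not overlap, and MTP+CR 1 and 4 were highest (adjusted p = 0.049, edgeR's quasi-likelihood test). The call was lost without any 1 of the NC livers, MTP 1, 2 or 3, or MTP+CR 1, 3 or 4, with adjusted p-values of up to 0.138. DESeq2 called 35 members higher and limma-voom 9.

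These are short genes, with a median length of 2626 bases against 5674 for all genes tested. The median over the oxidative phosphorylation list was 0.71 with the length trend removed and 0.44 without MTP+CR 1 and 4. The 79 cytosolic ribosomal protein genes showed a like pattern, with a median of 0.75, which was 0.54 with the length trend removed and 0.19 without MTP+CR 1 and 4. In that list 0 genes were higher by edgeR's quasi-likelihood test, and DESeq2 and limma-voom called 7 and 3 higher. At an unadjusted p under 0.05, 39 were higher, against 11.1% of all genes tested. In MTP livers against NC livers the medians were 0.02 for the oxidative phosphorylation list and 0.00 for the ribosomal list. The 13 genes of oxidative phosphorylation encoded in mitochondrial DNA had a median of −0.09 in MTP+CR livers against NC livers, which was 0.03 without NC 3 and 0.05 without MTP+CR 4, and 0 calls by edgeR, DESeq2 or limma-voom, with 1 member at an unadjusted p under 0.05.

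Across all genes the change was graded by length. The median log2 fold change of MTP+CR against NC livers was 0.34, 0.19, 0.01, −0.12 and −0.33 from the shortest to the longest quintile of genes, and that of MTP against NC livers stayed between 0.01 and 0.03. The flat MTP medians combine libraries of opposite slope, since counts on long genes were relatively high in MTP 1 to 3 and relatively low in MTP 4, which ran from 0.22 in the shortest quintile to −0.14 in the longest. Lower calls numbered 7, 27, 27, 41 and 50 over the same quintiles, and higher calls 15, 16, 10, 7 and 2. Without MTP+CR 1 and 4, lower calls numbered 1, 11, 9, 12 and 19, higher calls 0, 0, 1, 1 and 1, and the medians were 0.12, 0.07, 0.01, −0.05 and −0.15. Removing the trend from each library left 153 calls, 44 higher and 109 lower. The cause of this gradient was not tested.

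**Figure D4:**
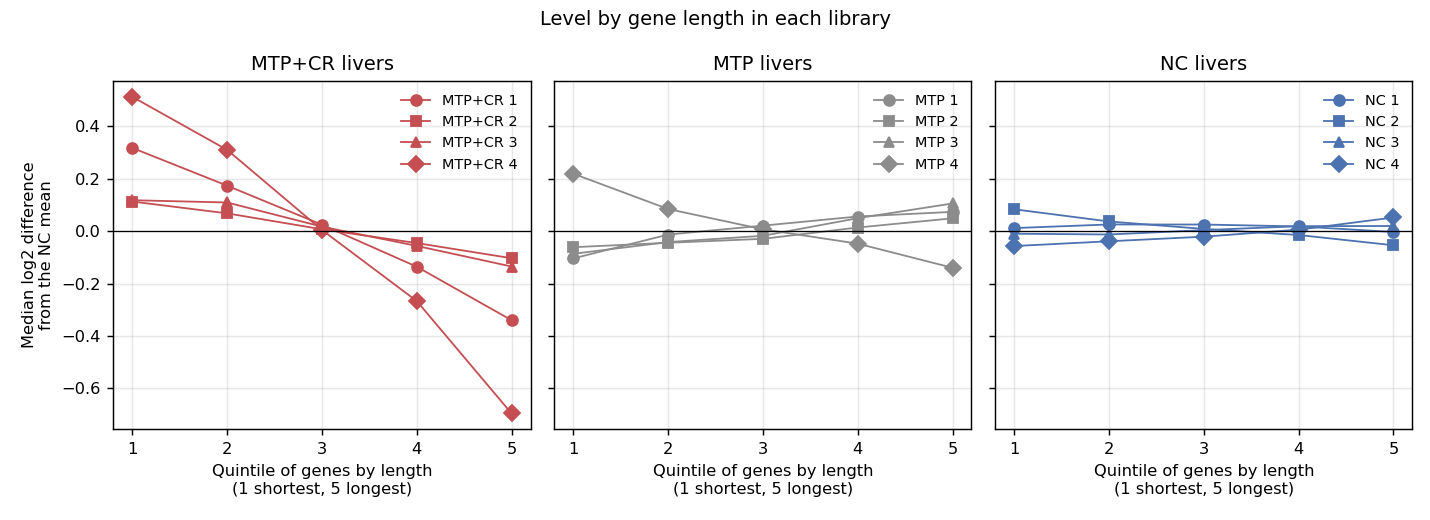
Median log2 difference from the NC mean in each quintile of genes by length, with 1 line per library and a panel for MTP+CR, MTP and NC livers. MTP+CR 4 runs from 0.51 in the shortest quintile to −0.70 in the longest, MTP 4 from 0.22 to −0.14, while the NC lines stay between −0.06 and 0.08.

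Among lipogenic genes, a desaturase was far below saline levels. Scd1, the stearoyl-CoA desaturase that makes monounsaturated fatty acids, was the 1 lower call among 27 genes of fatty acid and triglyceride synthesis, whose median was −0.44. At an unadjusted p under 0.05, 2 were higher and 6 lower, against 11.1% and 10.8% of all genes tested. DESeq2 called 1 higher and 3 lower. Scd1 measured 361, 347, 200 and 466 CPM in MTP+CR livers, against 3158, 1072, 2465 and 885 CPM in NC livers. The groups did not overlap, and the log2 fold change was −2.46 ± 0.51 (SE; adjusted p = 0.0346, edgeR's quasi-likelihood test). In MTP livers Scd1 ranged from 138 to 591 CPM, also below every NC liver.

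Among 45 cytochrome P450 genes and partners of drug metabolism, 1 was higher and 1 was lower (median 0.22). At an unadjusted p under 0.05, 6 were higher and 4 lower, against 11.1% and 10.8% of all genes tested. Cyp2c29, a P450 of the Cyp2c family, measured 351, 578, 589 and 200 CPM in MTP+CR livers, against 1987, 986, 2321 and 1924 CPM in NC livers (log2 fold change −2.07 ± 0.46, SE; adjusted p = 0.043 by edgeR's quasi-likelihood test). Por, the reductase that feeds electrons to microsomal P450s, measured 490, 176, 461 and 495 CPM in MTP+CR livers, against 111, 153, 109 and 145 CPM in NC livers (1.65 ± 0.32, adjusted p = 0.0257 by the same edgeR test). Neither gene overlapped between the groups, although MTP+CR 2 lay close to the highest NC liver for Por. MTP livers had 51.4 to 208 CPM of Cyp2c29 and 373 to 539 CPM of Por. Reads of Cyp2c29 may be shared with near-identical Cyp2c genes.

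Ugt3a2, a UDP-glycosyltransferase, measured 17.3, 32.4, 32.7 and 13.2 CPM in MTP+CR livers, against 219, 186, 247 and 44.1 CPM in NC livers, and was the 1 lower call of 26 conjugating enzymes. NC 4 lay well below the other NC livers but above every MTP+CR liver. The 26 enzymes had a median of −0.16, with 9 positive and 17 negative. At an unadjusted p under 0.05, 0 of them were higher and 3 lower, against 11.1% and 10.8% of all genes tested. DESeq2 and limma-voom each called 1 lower. Ppp1r3b, which targets a phosphatase to glycogen, ranged from 56.3 to 83.8 CPM in MTP+CR livers and from 158 to 287 CPM in NC livers. Serpina7, the thyroxine-binding globulin, ranged from 9.57 to 11.5 CPM in MTP+CR livers and from 20.7 to 124 CPM in NC livers. Tnfsf10, the death ligand TRAIL, measured 7.96, 7.37, 4.33 and 5.82 CPM in MTP+CR livers, against 34.8, 16.0, 49.1 and 35.1 CPM in NC livers, with a log2 fold change of −2.40 ± 0.32 (SE; adjusted p = 0.00442, edgeR's quasi-likelihood test). The MTP ranges were 53.7 to 142 CPM for Ugt3a2, 22.1 to 88.8 CPM for Ppp1r3b, 12.9 to 17.9 CPM for Serpina7 and 8.50 to 11.9 CPM for Tnfsf10.

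Higher calls outside lipid metabolism included a chaperone gene and a polyubiquitin gene. Hspa8, the constitutive HSC70 chaperone and the 1 call of 22 chaperones, measured 815, 331, 599 and 480 CPM in MTP+CR livers, against 201, 198, 220 and 169 CPM in NC livers (log2 fold change 1.497 ± 0.29, SE; adjusted p = 0.027 by edgeR's quasi-likelihood test). Ubb, a polyubiquitin gene, measured 778, 812, 644 and 781 CPM in MTP+CR livers, against 267, 328, 175 and 169 CPM in NC livers. The groups did not overlap for either gene. The 22 chaperones had a median of 0.34 in MTP+CR livers and 0.28 in MTP livers, each against NC livers. At an unadjusted p under 0.05, 7 of them were higher and 1 lower, against 11.1% and 10.8% of all genes tested. DESeq2 and limma-voom each called 2 of the 22 higher. Trappc6a, of a vesicle tethering complex, ranged from 14.9 to 32.0 CPM in MTP+CR livers and from 5.14 to 7.13 CPM in NC livers, and Id2, a transcriptional inhibitor, from 195 to 249 CPM in MTP+CR livers and from 77.4 to 128 CPM in NC livers.

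**Figure D5:**
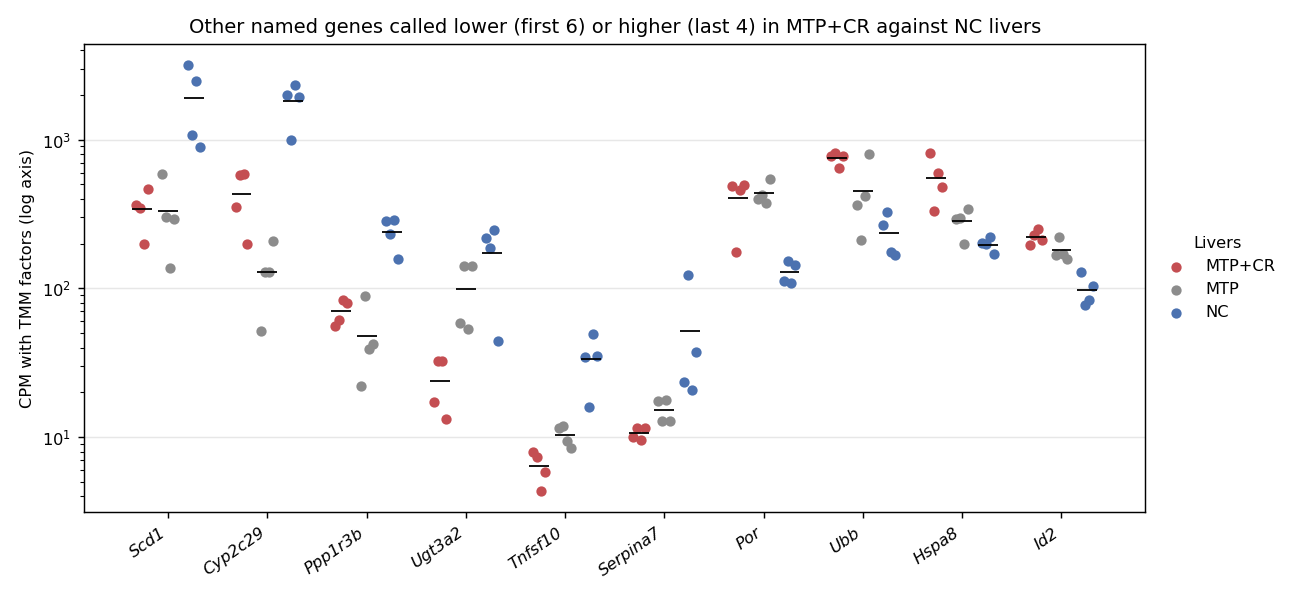
Level of 10 further named genes (CPM with TMM factors, log axis), with 1 point per liver and a line at the group mean. The first 6 lie lower and the last 4 higher in all MTP+CR livers than in all NC livers, as for Tnfsf10 with at most 7.96 CPM in MTP+CR livers and at least 16.0 CPM in NC livers.

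Some of the largest rises were of genes near the detection level in NC livers. Cntnap1, an axonal adhesion gene, measured 3.27, 20.9, 5.04 and 32.1 CPM in MTP+CR livers, against 0.628, 1.20, 2.48 and 0.764 CPM in NC livers, and ranged from 52.9 to 89.2 CPM in MTP livers. The histone gene H4c8 measured 1.21, 12.4, 2.84 and 17.7 CPM in MTP+CR livers, against 0.913, 0.00, 0.426 and 0.486 CPM in NC livers. MTP+CR 2 and 4 were highest for both genes, while MTP+CR 1 was just above the highest NC liver. Hist1h2al ranged from 27.7 to 57.7 CPM in MTP+CR livers and from 1.54 to 8.50 CPM in NC livers. Reads of histone genes may be shared between near-identical copies.

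Dbp, an output factor of the circadian clock, measured 5.69, 2.35, 33.4 and 4.24 CPM in MTP+CR livers, against 1.03, 2.00, 1.06 and 0.694 CPM in NC livers, with MTP+CR 3 far above the others and MTP+CR 2 close to NC 2. The groups did not overlap, and the log2 fold change was 3.25 ± 0.73 (SE; adjusted p = 0.0483, edgeR's quasi-likelihood test). The 22 genes of the clock and its output had a median of −0.32, with 9 positive and 13 negative. By edgeR 1 of the 22 was higher and 1 lower. At an unadjusted p under 0.05, 3 were higher and 3 lower, against 11.1% and 10.8% of all genes tested. DESeq2 called 2 higher and 1 lower, and limma-voom 1 higher and 1 lower. The median was 0.09 without MTP+CR 1 and 4. The hour at which livers were taken is not given in the sources used here.

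Rps2 and Hba-a2 had large negative fold changes, but both have near-identical copies in the genome. Rps2, a ribosomal protein gene with many processed copies, measured 3.70, 1.96, 3.43 and 3.52 CPM in MTP+CR livers, against 2.80, 115, 51.2 and 151 CPM in NC livers, so NC 1 lay inside the MTP+CR range. Hba-a2, an α-globin gene, ranged from 0.196 to 1.85 CPM in MTP+CR livers and from 2.41 to 13.7 CPM in NC livers. Its neighbour Hba-a1, nearly identical in sequence and chosen after its values were seen, ranged from 52.7 to 257 CPM in MTP+CR livers and from 40.2 to 261 CPM in NC livers, with a log2 fold change of −0.05 ± 0.59 that turned positive without NC 1, 3 or 4 or MTP+CR 2. Calls of such copies depend on how shared reads were counted and are uncertain.

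Of the calls from Scd1 to Hba-a2, those of Tnfsf10 and Trappc6a held with any 1 library left out, and each other call was lost in 2 (Rps2) to 10 (Dbp and Ubb) of the 12 such fits. Every library except MTP 4 ended at least 1 of these calls when left out. Calls were lost both without NC 1 and without NC 4 for Cntnap1, Cyp2c29, Dbp, H4c8, Hba-a2, Hspa8, Por, Ppp1r3b and Ubb. Those of Scd1 and Ugt3a2 were lost without NC 1 but not without NC 4. Those of Hist1h2al, Id2 and Serpina7 were lost without NC 4 but not without NC 1. The call of Rps2 was lost without MTP+CR 3 or MTP+CR 4. Over these genes and fits the adjusted p-value by edgeR's quasi-likelihood test was at most 0.138.

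Ercc3, the target of triptolide, was not called. It measured 16.7, 29.3, 20.6 and 24.0 CPM in MTP+CR livers, against 21.3, 19.2, 23.8 and 19.9 CPM in NC livers (log2 fold change 0.11 ± 0.23, SE; adjusted p = 0.81, edgeR's quasi-likelihood test), and the ranges overlapped. Its sign turned with the length trend removed and without MTP+CR 2. The other TFIIH genes, among them Ercc2 at −0.65 ± 0.28 and Gtf2h5 at 0.98 ± 0.25, were not called. Polr2a, the large subunit of RNA polymerase II, measured 35.4, 111, 61.0 and 50.8 CPM in MTP+CR livers, against 55.6, 42.4, 55.4 and 51.1 CPM in NC livers (0.34 ± 0.35), and 106 to 292 CPM in MTP livers. Without MTP+CR 2 its sign turned. Of 49 genes of the polymerase and its initiation and elongation factors, 1 was called, Polr2l, a small shared subunit, with 27.3 to 54.3 CPM in MTP+CR livers and 8.96 to 21.1 CPM in NC livers. That call was lost in 9 of the 12 fits that left out 1 library, all but those without NC 1, MTP 4 or MTP+CR 2 (adjusted p up to 0.131 by edgeR's quasi-likelihood test). At an unadjusted p under 0.05, 14 of the 49 were higher and 2 lower, against 11.1% and 10.8% of all genes tested. DESeq2 called 7 of the 49 higher and limma-voom 2.

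The genes of drug metabolism that the study singled out were not called against NC. The study chose them from other comparisons, MTP against control and MTP+CR against MTP, and its qRT-PCR tests were against MTP. Cyp1a2, a P450 of the pericentral liver, measured 584, 374, 601 and 288 CPM in MTP+CR livers, against 1026, 755, 869 and 680 CPM in NC livers. Every MTP+CR liver was below every NC liver, but the log2 fold change of −0.85 ± 0.44 (SE) did not pass (adjusted p = 0.272, edgeR's quasi-likelihood test). Gstp1, a pi class glutathione transferase, measured 1073, 328, 1265 and 923 CPM in MTP+CR livers, against 671, 590, 1321 and 640 CPM in NC livers, and Gsta4, an alpha class member, ranged from 30.3 to 91.0 CPM in MTP+CR livers and from 26.5 to 57.9 CPM in NC livers. Both overlapped, with log2 fold changes of 0.16 ± 0.48 and 0.20 ± 0.58 whose sign turned in some fits.

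Lists of hepatocyte genes differed in their medians, and few of their members were called. The 26 hepatocyte markers had a median of 0.10 in MTP+CR livers against NC livers and −1.35 in MTP livers against NC livers. The same pair of medians was 0.04 and −1.70 for 27 cholesterol synthesis genes, −0.04 and −1.93 for 34 male-biased genes, and 0.16 and −0.72 for 53 genes that break down amino acids or make urea. The sign of the first 3 medians against NC turned in some fits, for hepatocyte markers with the length trend removed (−0.06), for cholesterol synthesis in 8 fits, among them those without MTP+CR 2 (−0.59), with the replicate block (−0.30) and with limma-voom (−0.25), and for male-biased genes without NC 3 (0.29) or MTP+CR 2 (0.16) or with the replicate block (0.01). In MTP+CR livers these 4 lists had 0 calls by edgeR's quasi-likelihood test. At an unadjusted p under 0.05 they held 2, 1, 1 and 4 higher members and 1, 0, 0 and 0 lower members in the order given, against 11.1% and 10.8% of all genes tested. DESeq2 called 1, 1, 0 and 0 of them higher and 1, 0, 0 and 0 lower, and limma-voom called 0 in each.

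Other hepatocyte lists lay further from 0, also with 0 calls by edgeR's quasi-likelihood test. Of all genes tested, 11.1% were higher and 10.8% lower at an unadjusted p under 0.05. Acute phase proteins, which the liver secretes in inflammation, had a median of −0.48 in MTP+CR livers against NC livers and −0.58 in MTP livers against NC livers, with 26 of 29 members negative and 5 lower at an unadjusted p under 0.05 in MTP+CR livers. DESeq2 called 1 of them lower and limma-voom 0, and the median was 0.35 without NC 2 and 0.00 with limma-voom. The 29 genes of gluconeogenesis and the fasting response had a median of −0.27 (−0.14 in MTP livers), with 3 higher and 6 lower at an unadjusted p under 0.05, 1 higher and 4 lower by DESeq2, and 0 higher and 1 lower by limma-voom. The 20 major urinary protein genes, near-identical copies whose counts are uncertain, had a median of 0.44 (−2.03 in MTP livers), which was −0.01 without MTP+CR 1, with 1 higher and 0 lower at an unadjusted p under 0.05 and 0 calls by DESeq2 or limma-voom.

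Among lists of responses, the 28 p53 targets had a median of 0.30 in MTP+CR livers against NC livers and 1.30 in MTP livers against NC livers. They held 0 calls by edgeR's quasi-likelihood test, 3 higher and 1 lower by DESeq2, and 1 lower by limma-voom. At an unadjusted p under 0.05, 6 were higher and 1 lower, against 11.1% and 10.8% of all genes tested. Interferon-stimulated genes had a median of −0.56 in MTP+CR livers and −0.65 in MTP livers, each against NC livers, and 33 of 40 members were negative in MTP+CR livers. None was called by edgeR, 6 were lower at an unadjusted p under 0.05 (10.8% of all genes tested), and DESeq2 and limma-voom each called 1 lower.

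Albumin (Alb) measured 64563, 38496, 56232 and 53163 CPM in MTP+CR livers, against 93882, 47776, 125385 and 100146 CPM in NC livers, and MTP+CR 1, 3 and 4 lay above NC 2 (log2 fold change −0.79 ± 0.38, SE; adjusted p = 0.244, edgeR's quasi-likelihood test).

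Apolipoprotein genes had a median of 0.52 with 0 calls of 30 by edgeR, 3 higher by DESeq2 and 1 by limma-voom. At an unadjusted p under 0.05, 10 were higher, against 11.1% of all genes tested. Apoa4, of triglyceride-rich lipoproteins, ranged from 458 to 8969 CPM in MTP+CR livers and from 219 to 613 CPM in NC livers (log2 fold change 3.11 ± 0.74, SE; adjusted p = 0.0592 by edgeR's quasi-likelihood test). Lcat, the enzyme that esterifies cholesterol in plasma, ranged from 610 to 1738 CPM in MTP+CR livers and from 448 to 618 CPM in NC livers (1.27 ± 0.32, adjusted p = 0.0691 by the same edgeR test). The lowest MTP+CR liver overlapped the highest NC liver for both, MTP+CR 3 for Apoa4 and MTP+CR 1 for Lcat.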

How the data were processed

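Liver RNA of 12 mice was sequenced with a SMARTER mRNA kit on an Illumina NovaSeq. The authors mapped trimmed reads to mm10 (Hisat2 in the methods, Bowtie 0.12.2 in the labels) and deposited 1 table of whole-number counts per gene; the annotation release is not given in the sources used here. The FPKM values deposited beside them were used in 2 alternatives and to derive the gene lengths. Of the 55487 identifiers, 55227 were found in GENCODE vM21, the source of the coordinates.

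The count analysis used edgeR 4.0.16 under R 4.3.3. After filterByExpr (minimum count 10, total 15) and TMM scaling, genes were tested with 1 quasi-likelihood fit over the 3 groups and Benjamini-Hochberg adjustment over all genes. Fold changes are MTP+CR over NC on the log2 scale, ± SE. The script was tested on simulated data. Alternatives were DESeq2 1.42.0, limma-voom 3.58.1 with quality weights per library, other scalings and filters, the replicate number as a block, and each library left out. The fit without MTP+CR 1 and 4 was chosen after seeing the data. The labels give no litter or cage, so p-values measure the spread between these mice.

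The comparison and the gene lists were chosen with earlier results of these data known. Genes were named by rule: the 12 largest changes per direction among called genes without overlap and with at least 5 CPM in the higher group, the 5 most abundant calls per direction, up to 4 calls per list (2 members where none was called), the genes the study assayed, Alb, and TFIIH with Polr2a. Of 77 genes given values, 19 have an exon overlapping an exon of another gene, 16 of them on the opposite strand (Acadvl, Acot8, Clec4g, Cntnap1, Crat, Dbp, Fcgr2b and Gpr182 among them); strand use in counting is not stated, so reads of such pairs cannot be told apart. A gene that the rule names is not reported here. Promoter sequences are from RefSeq (GRCm38.p6).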

Additional observations from a re-analysis of the deposited data

Results flagged for a closer look

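In 9 of 154 groups of 4 livers checked, 1 liver lay far from the other 3 by Dixon's criterion, and chance alone flags about 1 in 20 groups. In MTP+CR livers these were Por in MTP+CR 2 (176 CPM, others 461 to 495), Dnase1l3 in MTP+CR 4 (58.6 CPM, others 32.9 to 35.4) and Rps2 in MTP+CR 2 (1.96 CPM, others 3.43 to 3.70). In NC livers they were Kdr in NC 4 (96.9 CPM, others 84.1 to 85.7), Acadvl in NC 1 (165 CPM, others 282 to 302), Ugt3a2 in NC 4 (44.1 CPM, others 186 to 247), Hba-a1 in NC 2 (40.2 CPM, others 200.4 to 261), Gstp1 in NC 3 (1321 CPM, others 590 to 671) and Clec4f in NC 3 (203 CPM, others 273 to 284).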

How the results depend on the processing

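The 202 calls became 1158 with DESeq2, 625 with limma-voom, 116 without a filter, 105 in a fit of only the 8 livers, 79 on log2(FPKM + 1) and 55 without MTP+CR 1 and 4, and 63 to 370 when 1 library was left out. Lower calls made up 75.2% of the total, against 51.4% with DESeq2, 62.2% with limma-voom and 94.5% without MTP+CR 1 and 4. The 12 endothelial calls stayed within 1.5 times that number except under the replicate block and with NC 1, 2 or 4 or MTP+CR 3 left out (range 7 to 15 over the 12 such fits). The 8 fatty acid oxidation calls became 27 with DESeq2, 17 with limma-voom, 5 with upper-quartile factors, 5 with the 8 livers alone, 4 without a filter, and 2 to 10 with 1 library left out. Same-numbered livers did not deviate together (correlations −0.16 to 0.06). A replicate block left 66 genes, 7 endothelial markers and 5 fatty acid oxidation genes called. Of 1925 refits of the 77 genes, 1438 kept direction and call, 460 lost the call, 14 gained it and 13 changed sign. Those were Hba-a1 without NC 1 (0.0067), NC 3 (0.19), NC 4 (0.055) or MTP+CR 2 (0.25), Polr2a without MTP+CR 2 (−0.058), Ercc3 without MTP+CR 2 (−0.039) or with the length trend removed (−0.037), Gsta4 with the length trend removed (−0.14), limma-voom (−0.15), without MTP+CR 4 (−0.23) or without MTP+CR 1 and 4 (−0.36), and Gstp1 without MTP+CR 3 (−0.057) or without MTP+CR 1 and 4 (−0.010). With 1 library left out, the values ranged from −0.38 to 0.25 for Hba-a1, −0.058 to 0.54 for Polr2a, −0.039 to 0.23 for Ercc3, −0.23 to 0.38 for Gsta4 and −0.057 to 0.50 for Gstp1. The cause of these changes was not tested. Depth limits genes under about 1 CPM, such as H4c8 in NC livers.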

Other observations

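Beyond the endothelial list, further genes known from vascular endothelium were among the 152 lower calls, and those given here were chosen after their values were seen. Adgrl4 (ELTD1, an adhesion receptor of angiogenic vessels) measured 6.75, 5.87, 3.75 and 8.84 CPM in MTP+CR livers, against 22.9, 27.1, 29.5 and 32.3 CPM in NC livers. Nrp2, a co-receptor of VEGFR3, ranged from 3.56 to 6.52 CPM in MTP+CR livers and from 13.8 to 21.9 CPM in NC livers. Ehd3, an endocytic ATPase, ranged from 26.1 to 51.0 CPM in MTP+CR livers and from 89.7 to 98.0 CPM in NC livers, and the water channel Aqp1 from 33.2 to 66.9 CPM in MTP+CR livers, 117 to 157 CPM in NC livers. Calcrl, Cd93 and Clec14a lay at log2 fold changes of −1.48, −1.40 and −1.52. All 7 were separated between the groups, and in MTP livers against NC livers none was called. The calls of Adgrl4, Nrp2 and Ehd3 held with any 1 library left out, while those of Aqp1 (NC 1, 2 or 4), Calcrl (NC 4), Cd93 (NC 3 or 4 or MTP+CR 3) and Clec14a (NC 1, 3 or 4 or MTP+CR 3 or 4) were lost without the libraries named, at adjusted p-values of up to 0.0703 by edgeR's quasi-likelihood test.

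The lower calls also held 4 genes known from leukocytes or macrophages, on none of the lists and chosen after their values were seen, while the lists of such cells held few calls, with 2 of 19 Kupffer cell, 1 of 20 monocyte and macrophage, 0 of 18 neutrophil and 0 of 22 T and NK cell markers lower by edgeR's quasi-likelihood test. At an unadjusted p under 0.05, 5, 5, 1 and 0 members of these lists were lower (10.8% of all genes tested), and DESeq2 called 3, 2, 0 and 0 of them lower. Cybb, the catalytic subunit of the phagocyte NADPH oxidase, measured 24.1, 27.3, 28.1 and 21.9 CPM in MTP+CR livers, against 72.5, 54.7, 49.5 and 85.2 CPM in NC livers. Msr1, the class A scavenger receptor, ranged from 16.7 to 23.5 CPM in MTP+CR livers and from 40.8 to 62.0 CPM in NC livers. Ptprc (CD45) ranged from 11.2 to 21.3 CPM in MTP+CR livers and from 31.0 to 48.5 CPM in NC livers, and Itgb2 (CD18) from 10.3 to 14.9 CPM in MTP+CR livers, 17.9 to 34.6 CPM in NC livers. No MTP+CR liver reached the NC range for any of them. The calls of Cybb and Msr1 held with any 1 library left out, that of Ptprc was lost without NC 1 or 4 or MTP+CR 1, 3 or 4, and that of Itgb2 in 10 of the 12 such fits, all but those without NC 3 or MTP 4 (adjusted p up to 0.139 by edgeR's quasi-likelihood test).

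Named genes not described above that also differed were Cyyr1 (0.216 to 1.49 CPM in MTP+CR livers, 5.21 to 7.64 CPM in NC livers), Plekhg1 (1.16 to 2.68 CPM in MTP+CR livers, 8.02 to 11.5 CPM in NC livers), Mid1 (0.216 to 1.42 CPM in MTP+CR livers, 2.48 to 14.4 CPM in NC livers) and Slc26a4 (0.355 to 1.83 CPM in MTP+CR livers, 3.34 to 7.13 CPM in NC livers), all lower, and Sertad1 (7.44 to 18.2 CPM in MTP+CR livers, 2.50 to 6.05 CPM in NC livers) and the noncoding Zfas1 (6 to 24.0 CPM in MTP+CR livers, 3.41 to 4.65 CPM in NC livers), both higher. The calls of Cyyr1 and Plekhg1 held with any 1 library left out, and those of Mid1, Slc26a4, Sertad1 and Zfas1 were lost in 6 to 10 of the 12 such fits, among them the fit without NC 4.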
